A study of Mus musculus with 10 samples.

Results

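Rell1, its relatives in the RELT family and the kinases of the WNK-SPAK cascade were examined in mice lacking HOIL-1L, in the alveolar epithelial cells of type II (AT2), which make the surfactant of the lung. The group holds 6 genes of the 16154 in the deposited table: Rell1, Rell2 and Relt of the RELT family, and Stk39, Oxsr1 and Wnk1 of the kinases. They were found by matching Ensembl IDs to symbols, and all 6 had a row. Rell1 was chosen by its measured difference between knockout and wild type in these same libraries, so that its values in that comparison are a description and carry no test. The other 5 were listed for their family or pathway link to it, with results of the study in view.

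Both groups were C57BL/6 mice aged 8 to 10 weeks, and the RNA came from AT2 cells sorted from lung. The knockout group (5 libraries, replicates 1 to 5) has the genotype label HOIL-1L -/-, whereas the design text describes a floxed HOIL-1L allele deleted by Cre under the surfactant protein C promoter, which acts in AT2 cells and their progeny. The wild type group (5 libraries, replicates 2 to 6) has no allele or Cre named. HOIL-1L, encoded by Rbck1, is a subunit of the complex that builds linear ubiquitin chains.

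RELT is a receptor of the tumour necrosis factor receptor superfamily, and RELL1 and RELL2 are membrane proteins related to its intracellular part. In human cells RELT family proteins bind the kinases SPAK (encoded by Stk39) and OSR1 (encoded by Oxsr1) and activate the p38 pathway when overexpressed. WNK kinases, among them WNK1, phosphorylate SPAK and OSR1, which in turn act on the cation-chloride cotransporters that set cell volume and chloride. AT2 cells take part in salt and fluid transport across the alveolar wall.

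Levels are given as normalized counts per M, meaning the deposited values divided by 1 constant so that the average column sums to 1000000. The lowest values put the depth at roughly 7.69 to 13.2 M reads per library. AT2 markers were high in every library, with Sftpc (surfactant protein C) at 110865 to 138822 per M in knockout and 110469 to 147854 in wild type. Cdh5 (endothelial list), Marco (macrophage and monocyte list) and Cd3e (lymphocyte list), among the lowest of those lists, stood at 0 to 1.25 per M. Other genes of those lists ranged from 0 to moderate levels, apart from Lyz2 of the macrophage and monocyte list. Lyz2 stood at 29536.7 to 39659.5 per M in knockout and 32705.6 to 40837 in wild type. Kdr and Egfl7 of the endothelial list had 7.01 to 11.3 per M in knockout and 4.88 to 14.0 in wild type, Csf1r and Cd14 of the macrophage and monocyte list 9.67 to 94.9 in knockout and 10.0 to 104 in wild type, Chil3 of the same list 0.799 to 20.3 in knockout and 1.46 to 22.6 in wild type, and Cd79b of the lymphocyte list 16.4 to 18.0 in knockout and 17.5 to 25.2 in wild type. Club cell RNA was present, with Scgb1a1 at 3866 to 7235 per M in knockout and 3544 to 7554 in wild type. Ager, the highest of the type I cell (AT1) list, stood at 1688 to 1953 per M in knockout and 1542 to 2209 in wild type. Sec14l3, the highest of the ciliated list, stood at 369 to 502 per M in knockout and 289 to 564 in wild type. The targeted gene went against the label in 2 libraries. Rbck1 stood at 59.3 per M in the library labelled knockout 1 and at 29.8 to 38.8 in the other 4 knockout libraries. It stood at 29.7 in the library labelled wild type 2 and at 56.1 to 57.8 in the other 4 wild type libraries. Whether the labels of these 2 libraries are right was not tested, and every mean and difference over all 10 libraries depends on it. The gene-level value counts all exons, deleted or not. Results are given with all 10 libraries as labelled and also for the 8 libraries without these 2. Of 10 lists of cell type markers, 0 genes passed with all 10 libraries, as did 0% of all genes (limma, adjusted p over all genes tested). In the 8 libraries 0.402% of all genes passed, and 1 marker did, the mesothelial gene Msln. It stood at 2.18 to 20.0 per M in all knockout libraries and 2.13 to 8.68 in all wild type libraries. The summed level of its list was 10.5 to 24.7 per M in knockout and 8.11 to 19.3 in wild type. The other 4 tested genes of that list, Col1a1, Col1a2, Col3a1 and Dcn, had log2 differences, knockout minus wild type, of -1.03 to -0.17 in the 8 libraries and did not pass, at 0.271 to 3.22 per M in knockout and 0.353 to 3.68 in wild type. Of the ciliated markers, 7 of 8 had log2 differences below 0 with all libraries and 8 of 8 in the 8 (medians -0.19 and -0.30). Of the AT1 and of the AT2 markers, 8 of 10 lay below 0 in either fit, against 48.7% and 49.9% of all genes. Of the macrophage and monocyte markers, 6 of the 8 tested lay above 0 in either fit. The part of these marker genes in the results was not tested. In such bulk libraries, fewer cells of a type and less RNA per cell cannot be told apart. By Xist and Y-linked genes, knockout 2, knockout 3 and wild type 2 were female and the other 7 libraries male. Each title carries a mouse number, and these numbers form 2 runs, not named as batches in any label, with knockout 1 to 3 and wild type 2 and 3 in the first and knockout 4 and 5 and wild type 4 to 6 in the second.

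The promoters of Rell1, Relt and Wnk1 are shown because the RELT family members lay far apart in level and Wnk1 was the one kinase with an unadjusted p under 0.05 between the groups. Each is the RefSeq window of 300 bases (250 before to 50 after the start site) on mm10 (GRCm38.p6), minus strand, written 5′ to 3′ in the direction of the gene. Capitals mark the GC box, GGGCGG or its complement CCGCCC, searched on both strands. The windows are chr5:63968848-63969147 for Rell1, chr7:100863364-100863663 for Relt and chr6:120038606-120038905 for Wnk1.
Rell1: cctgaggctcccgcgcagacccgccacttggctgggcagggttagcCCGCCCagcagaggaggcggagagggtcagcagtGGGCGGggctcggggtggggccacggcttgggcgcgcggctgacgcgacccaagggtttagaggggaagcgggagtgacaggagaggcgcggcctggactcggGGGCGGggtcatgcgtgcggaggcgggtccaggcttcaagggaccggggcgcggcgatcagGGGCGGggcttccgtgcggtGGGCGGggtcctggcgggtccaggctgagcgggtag
Relt: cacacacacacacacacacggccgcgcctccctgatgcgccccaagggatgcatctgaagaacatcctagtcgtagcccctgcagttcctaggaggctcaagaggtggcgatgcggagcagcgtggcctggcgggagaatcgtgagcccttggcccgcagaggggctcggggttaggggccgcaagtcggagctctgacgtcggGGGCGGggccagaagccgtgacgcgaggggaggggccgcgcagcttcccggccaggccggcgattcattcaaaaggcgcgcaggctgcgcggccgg
Wnk1: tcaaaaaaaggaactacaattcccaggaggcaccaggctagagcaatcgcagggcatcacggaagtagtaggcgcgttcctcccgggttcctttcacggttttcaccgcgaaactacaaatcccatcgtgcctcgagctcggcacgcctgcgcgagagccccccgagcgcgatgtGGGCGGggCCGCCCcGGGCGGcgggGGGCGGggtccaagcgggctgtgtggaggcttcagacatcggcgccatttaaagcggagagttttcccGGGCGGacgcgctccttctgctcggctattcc

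The Rell1 window held 5 GC boxes, that of Relt 1 and that of Wnk1 5. Among 32851 RefSeq promoter windows of the same length, 35.7% held at least 1. A hypoxia response core (ACGTG or GCGTG, both strands) occurred once in the Rell1 window, once in that of Relt and once in that of Wnk1, and 43.8% of all windows held it. None of these matches overlapped a GC box. The NF-kB consensus, present in 8.46% of all windows, had no match in the 5 members' windows searched, and neither had the CCAAT box, CCAAT, present in 37.4%. The Stk39 window held 4 GC boxes and that of Oxsr1 1. All 5 windows were rich in G and C, from 62.3% in Oxsr1 to 80% in Stk39, against a median of 52.7% over all windows. The table of promoters has no entry for Rell2.

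Rell1, the family member that led to this group, was lower in 4 of the 5 libraries labelled knockout than in every library labelled wild type. It is a protein-coding gene on chromosome 5 (mm10, 63908897 to 63968897, minus strand, ENSMUSG00000047881). It stood at 29.8, 16.0, 15.7, 13.8 and 14.2 per M in knockout 1 to 5, against 22.4, 26.7, 28.2, 27.9 and 22.4 per M in wild type 2 to 6. Knockout 1 was the highest of all 10 libraries, and the other 4 knockout libraries lay together below the lowest wild type library. As labelled, the means were 17.9 ± 6.71 per M in knockout and 25.5 ± 2.90 in wild type (SD, n = 5 each), and the groups overlapped through knockout 1 alone. The difference, knockout minus wild type, was -0.55 ± 0.17 on the log2 scale (SE, limma, log2 of value per M + 0.5). In the 8 libraries the means were 14.9 ± 1.09 per M in knockout and 26.3 ± 2.68 in wild type (SD, n = 4 each), the knockout mean being 56.8% of that of the wild type, and the log2 difference was -0.79 ± 0.11 (SE). In those 8 libraries the groups did not overlap, as was the case for 2.87% of the 12946 tested genes in the lower direction. About 146 to 300 reads per library stood behind these values, by the rough depth.

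**Figure D1:**
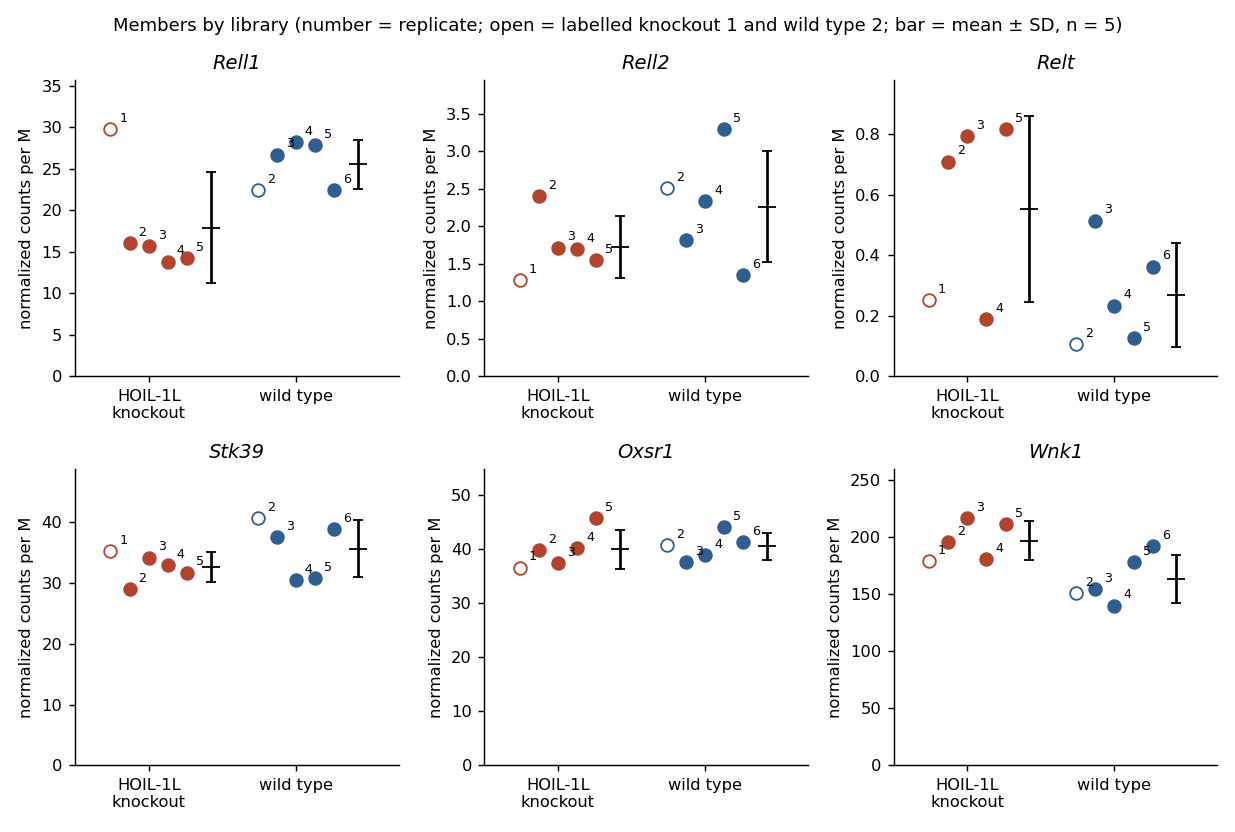
Normalized counts per M of the 6 genes in each library, knockout left and wild type right, numbered by replicate, with open circles for the libraries labelled knockout 1 and wild type 2 and bars for the mean ± SD (n = 5). For Rell1, knockout 2 to 5 lie between 13.8 and 16.0 per M and all other libraries between 22.4 and 29.8.

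Rell1 and Rbck1 did not single out the same libraries. The library labelled knockout 1 had the highest Rell1 level (29.8 per M) and the highest Rbck1 level (59.3 per M) of the 10. Rbck1 stood at 29.8 per M in knockout 2 and at 29.7 in the library labelled wild type 2, but the Rell1 level of that wild type library, 22.4 per M, was that of wild type 6. Its Rell1 level was also above all of knockout 2 to 5. Among the female libraries, knockout 2 had 16.0 per M of Rell1 and knockout 3 had 15.7, against 22.4 in wild type 2. Among the males, knockout 4 had 13.8 per M, knockout 5 had 14.2 and knockout 1 had 29.8, against 22.4 to 28.2 in wild type 3 to 6. With sex as a covariate, the log2 difference of Rell1, knockout minus wild type, was -0.52 ± 0.16 (SE) in all 10 libraries. Among the 8 libraries both females are knockout, so that such a fit compares males only, knockout 4 and 5 with wild type 3 to 6, and gave -0.88 ± 0.13.

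**Figure D2:**
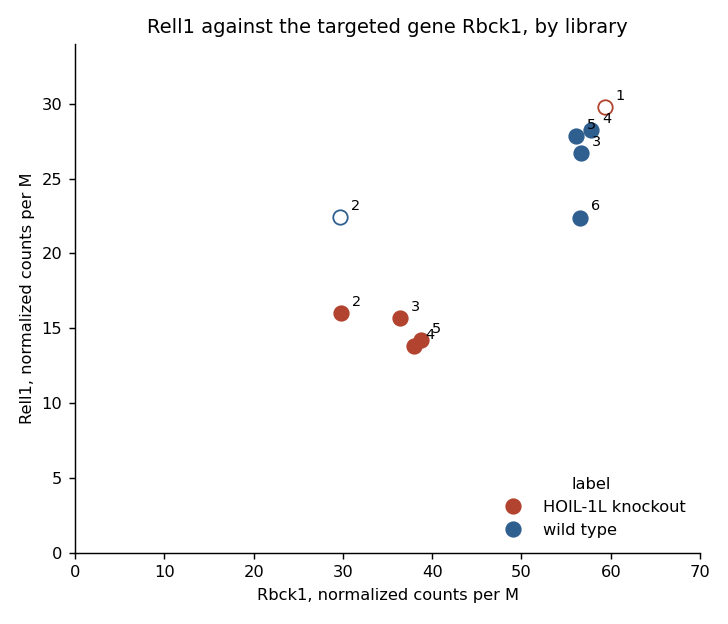
Rell1 against Rbck1 in each library, both as normalized counts per M, colored by label and numbered by replicate, with open circles for knockout 1 and wild type 2. Knockout 2 to 5 lie low on both axes, knockout 1 lies with wild type 3 to 5 at the top right, and wild type 2 lies at 29.7 per M of Rbck1 and 22.4 of Rell1.

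Split by run, the values of Rell1 remain a description, as the gene was chosen from this same contrast in these libraries. In the first run knockout 2 and 3 lay below wild type 2 and 3, while knockout 1 lay above them. In the second run knockout 4 and 5 lay below wild type 4 to 6. The log2 difference, knockout minus wild type, was -0.87 ± 0.15 (SE) within the second run and -0.31 ± 0.24 within the first as labelled. The second minus the first came to -0.56 ± 0.30 (SE) with all libraries and to -0.26 ± 0.21 without knockout 1, given as a description. For the other 4 tested members the change of the difference between runs was tested. Of these, 0 of 4 passed (limma, adjusted p), against 0.0154% of all genes. Likewise 0 of 4 had an unadjusted p under 0.05, against 767 of the 12946 genes tested.

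Inside Rell1 lies Gm15819, an antisense gene on the opposite strand (chromosome 5, 63923901 to 63924970, plus strand), whose pattern over the 10 libraries was the most like that of Rell1 of all genes tested. It stood at 4.65, 2.38, 2.31, 1.25 and 1.11 per M in knockout 1 to 5, against 3.22, 3.96, 4.55, 4.47 and 3.22 per M in wild type 2 to 6. As with Rell1, knockout 1 was the highest library and knockout 2 to 5 were the 4 lowest. Pearson's r with Rell1 on the log2 scale was 0.954 and Spearman's rho 0.976 over 10 libraries. Of the 481 exon bases of Gm15819, 104 are shared with exons of Rell1, and whether the counting used strand is not given in the sources used here. Reads of the gene and of its antisense partner therefore cannot be told apart on those bases, which are 2.70% of the exon bases of Rell1. All of Gm15819 lies within the span of Rell1, so unspliced Rell1 RNA could add reads to its other exon bases if strand was not used. How far the likeness of Gm15819 to Rell1 rests on shared reads was not tested. The log2 difference of Gm15819, knockout minus wild type, was -0.74 ± 0.27 (SE) with all libraries and -1.05 ± 0.24 in the 8.

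After Gm15819 the genes most like Rell1 were B230118H07Rik (Pearson's r 0.951, Spearman's rho 0.782), Adss (0.951 and 0.842), Rhoa (0.950 and 0.964) and Gtf2h5 (0.949 and 0.903), each over 10 libraries that also share their scaling. Chosen for likeness to Rell1, they get no test between the groups. They lie on chromosomes 2, 1, 9 and 17. Adss encodes an adenylosuccinate synthase of purine synthesis, Rhoa a small GTPase of the actin cytoskeleton, and Gtf2h5 a subunit of transcription factor TFIIH. Adss stood at 63.5 per M in knockout 1 and at 38.3 to 41.9 in knockout 2 to 5. Rhoa, the most abundant of these, stood at 304 ± 26.1 per M in knockout and 328 ± 4.95 in wild type (SD, n = 5 each), so that a similar order of libraries came with a smaller difference.

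Apart from Gm15819, the genes around Rell1 differed from it in pattern. Taken were the next 5 tested genes on each side of it on chromosome 5, by start position. Their starts relative to that of Rell1 ran from -10261 kb (Cckar) to 1001 kb (Fam114a1). Of these 10 genes, 0 passed with all libraries and 0 in the 8 (limma, adjusted p over all genes). Pearson's r with Rell1 over the 10 libraries lay between -0.748 and 0.602 for the 9 other than Gm15819. 0610040J01Rik, the nearest gene beyond the 3′ end of Rell1, had a log2 difference of 0.06 ± 0.08 (SE). Pgm2, a phosphoglucomutase gene upstream of Rell1, stood at 3.56 ± 0.883 per M in knockout and 4.38 ± 0.968 in wild type (SD, n = 5 each). The log2 differences of Cckar, Tbc1d19, Stim2, Arap2, Tbc1d1, Klf3 and Fam114a1 lay between 0.08 and 0.47, with limma adjusted p from 0.584 to 0.848.

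The other RELT family members were scarcely detected. Relt, the receptor (chromosome 7, 100845847 to 100863446, minus strand, ENSMUSG00000008318), stood at 0.250, 0.709, 0.794, 0.188 and 0.816 per M in knockout 1 to 5, against 0.104, 0.514, 0.233, 0.125 and 0.361 per M in wild type 2 to 6. Knockout 2, 3 and 5 were the highest libraries and the groups overlapped, and every value lay below 1 per M, which the rough depth puts at about 0.957 to 9.86 reads. Relt was therefore below the filter of 1 per M in at least 5 libraries and was not tested.

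Rell2 (chromosome 18, 37955079 to 37959179, plus strand, ENSMUSG00000044024) stood at 1.28, 2.40, 1.71, 1.69 and 1.54 per M in knockout 1 to 5, against 2.51, 1.81, 2.33, 3.29 and 1.35 per M in wild type 2 to 6. No library stood apart and the groups overlapped, at a rough depth of 10.4 to 25.9 reads per library. Its means were 1.73 ± 0.413 per M in knockout and 2.26 ± 0.736 in wild type (SD, n = 5 each). The log2 difference of -0.29 ± 0.23 (SE, 95% interval -0.77 to 0.20, limma adjusted p = 0.710) was within the spread between libraries, and the interval does not leave out a difference of the size seen for Rell1. Exons of Fchsd1, on the opposite strand, share 44.4% of the exon bases of Rell2, so that reads of both genes cannot be told apart there. Fchsd1 itself stood at 4.64 to 9.79 per M in knockout and 6.17 to 7.99 in wild type.

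Of the kinases, Wnk1, which starts the cascade, was the only one with an unadjusted p under 0.05, and its difference lay above 0. Wnk1 (chromosome 6, 119923969 to 120038672, minus strand, ENSMUSG00000045962) stood at 179, 195, 216, 181 and 212 per M in knockout 1 to 5, against 151, 155, 140, 178 and 192 per M in wild type 2 to 6. All knockout libraries lay above wild type 2 to 5, and wild type 6 overlapped the knockout range. The means were 197 ± 17.1 per M in knockout and 163 ± 21.4 in wild type (SD, n = 5 each). The log2 difference was 0.27 ± 0.09 (SE, 95% interval 0.09 to 0.46), and it did not pass over all genes (limma adjusted p = 0.359). In the 8 libraries it was 0.28 ± 0.09 (limma adjusted p = 0.226). Within the first run it was 0.36 ± 0.10 and within the second 0.21 ± 0.13.

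Stk39 and Oxsr1, the kinases that WNK1 phosphorylates, showed no difference beyond the spread between libraries. Stk39 (chromosome 2, 68210445 to 68472268, minus strand, ENSMUSG00000027030) stood at 35.2, 29.0, 34.2, 32.9 and 31.7 per M in knockout 1 to 5, against 40.6, 37.5, 30.4, 30.8 and 38.9 per M in wild type 2 to 6. Wild type 4 and 5 lay inside the knockout range and the other 3 wild type libraries above it. Its log2 difference was -0.12 ± 0.10 (SE, 95% interval -0.32 to 0.08, limma adjusted p = 0.705). Oxsr1 (chromosome 9, 119238432 to 119322427, minus strand, ENSMUSG00000036737) stood at 36.6, 39.9, 37.5, 40.3 and 45.7 per M in knockout 1 to 5, against 40.8, 37.6, 38.9, 44.2 and 41.3 per M in wild type 2 to 6. The whole wild type range lay within that of the knockout. Its log2 difference was -0.02 ± 0.08 (SE, 95% interval -0.19 to 0.15, limma adjusted p = 0.947). That interval leaves out a difference of the size of Rell1 in the same 10 libraries.

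With all libraries 0% of the 12946 genes had a limma adjusted p under 0.05, while 9.48% had an unadjusted p under 0.05. Of the 4 members tested other than Rell1, 0 passed and Wnk1 alone had an unadjusted p under 0.05. In the 8 libraries 0.402% of all genes passed, and 0 of these 4 members did.

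The runs of mouse numbers give a comparison that was not used to choose the genes. All female libraries (knockout 2, knockout 3 and wild type 2) lie in the first run, so run and sex cannot be fully told apart. Between the second and the first run, with group as a covariate, 0.626% of all genes passed (limma, adjusted p), and 15.8% had an unadjusted p under 0.05. None of the 5 tested members passed, and none had an unadjusted p under 0.05. Their log2 differences, second minus first run, were -0.19 ± 0.16 for Rell1, -0.03 ± 0.24 for Rell2, -0.13 ± 0.09 for Stk39, 0.13 ± 0.08 for Oxsr1 and 0.07 ± 0.09 for Wnk1 (SE). Oxsr1 had the smallest limma adjusted p of the 5, 0.433. The value of Rell1 depended on the fit, at -0.52 ± 0.17 with sex as a covariate (limma adjusted p = 0.241) and -0.03 ± 0.11 without knockout 1 (adjusted p = 0.920).

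Compared per length, the kinases and Rell1 lay close together and Rell2 and Relt far below. Per kb of exon, Wnk1 had 8.62 ± 0.748 normalized counts per M in knockout and 7.15 ± 0.936 in wild type (SD, n = 5 each). Oxsr1 had 7.48 ± 0.665 per M per kb in knockout and 7.58 ± 0.466 in wild type. Stk39 had 6.58 ± 0.486 per M per kb in knockout and 7.19 ± 0.954 in wild type. These 3 levels overlapped, and Stk39 exceeded Oxsr1 in 4 of 10 libraries. Rell1 had 4.64 ± 1.74 per M per kb in knockout and 6.62 ± 0.752 in wild type. In knockout 2 to 5 it lay below all 3 kinases, whereas in wild type 4 it lay above all 3. Rell2 had 0.517 ± 0.124 per M per kb in knockout and 0.676 ± 0.220 in wild type, and Relt had 0.168 ± 0.0936 in knockout and 0.0816 ± 0.0523 in wild type. Rell1 exceeded Rell2, and Rell2 exceeded Relt, in 10 of 10 libraries. The exon bases that Rell2 shares with Fchsd1 (44.4%) limit its level per kb, since how such reads were counted is not given.

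**Figure D3:**
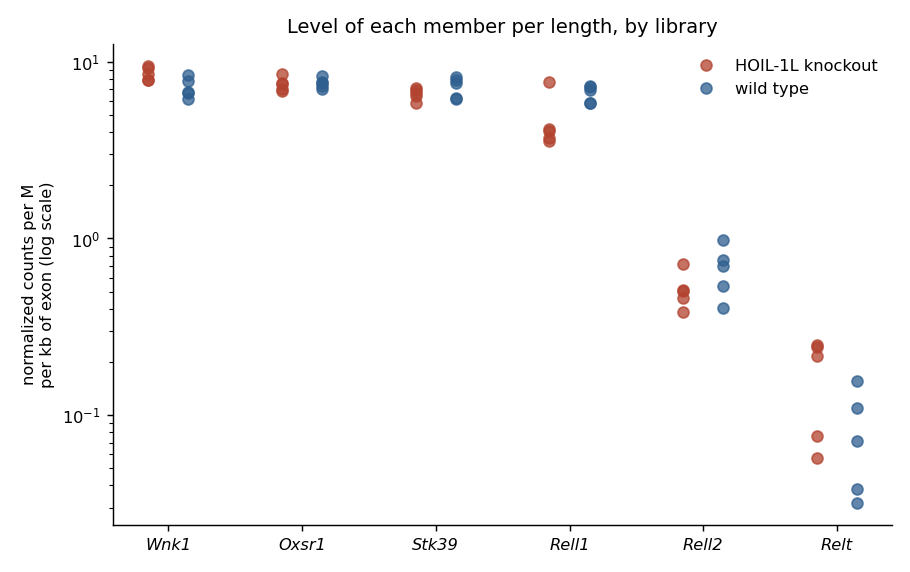
Level of each member as normalized counts per M per kb of exon on a log scale, with knockout libraries left and wild type libraries right. Wnk1, Oxsr1 and Stk39 lie between 5.85 and 9.48 in all libraries, Rell1 between 3.58 and 7.73, Rell2 between 0.384 and 0.986 and Relt between 0.0318 and 0.249.

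These levels divide by all annotated exons, 22825 bp for Wnk1 and 3856 bp for Rell1. Divided by the principal transcript alone, 10575 bp for Wnk1, its level was 18.6 ± 1.61 per M per kb in knockout and 15.4 ± 2.02 in wild type (SD, n = 5 each), above Stk39 at 9.22 ± 0.682 in knockout and 10.1 ± 1.34 in wild type. In wild type the mean of Wnk1 thus lay below those of Oxsr1 and Stk39 with the first length and above them with the second, where Oxsr1 had 8.61 ± 0.766 in knockout and 8.73 ± 0.537 in wild type. Among all tested genes with a length, mean level per kb of exon placed Wnk1, Oxsr1, Stk39 and Rell1 at percentiles 65.5, 64.2, 61.8 and 55.9 and Rell2 at 8.92.

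Over the 10 libraries the members varied largely apart from each other. Pearson's r of log2 values was -0.667 between Rell1 and Wnk1 and lay between -0.388 and 0.308 for the other 9 pairs of tested members, over libraries that share their scaling. Spearman's rho between Rell1 and Wnk1 was -0.697. Both values take in the log2 differences between knockout and wild type, -0.55 for Rell1 and 0.27 for Wnk1. Whether these genes vary together within a group was not tested.

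The wider pathway was read from 5 lists with 62 genes, chosen with earlier results of these data known, of which 57 had a row and 43 were tested. With all libraries 0 of the 43 passed in either direction, as did 0% of all genes, and 5 of the 43 had an unadjusted p under 0.05, against 9.48% of all genes. Their log2 differences, knockout minus wild type, lay above 0 for 31 of 43 and below 0 for 12, whereas 51.3% of all genes lay above 0. The median was 0.09, against 0.01 over all genes. In the 8 libraries 0 of 43 passed (smallest limma adjusted p = 0.0641) and the median was 0.12.

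Of the cation-chloride cotransporter family, which holds the substrates of SPAK and OSR1, 5 of 9 were tested. All 5 had log2 differences above 0, from 0.02 to 0.29, as did 51.3% of all genes. Slc12a7, a potassium-chloride cotransporter, stood at 48.0, 47.3, 47.6, 46.7 and 51.4 per M in knockout 1 to 5, against 47.9, 37.6, 32.5, 38.6 and 41.4 per M in wild type 2 to 6. The knockout libraries lay close together and above all wild type libraries except wild type 2. Its log2 difference was 0.29 ± 0.09 (SE, limma adjusted p = 0.357), and 0.36 ± 0.09 in the 8 libraries (adjusted p = 0.0981). Slc12a2, the sodium-potassium-chloride cotransporter, had the highest level of the list, at 462 ± 51.4 per M in knockout and 435 ± 66.5 in wild type (SD, n = 5 each), with a log2 difference of 0.09 ± 0.10. Slc12a4 and Slc12a9 had log2 differences of 0.05 ± 0.08 and 0.09 ± 0.10 (SE). Slc12a1, Slc12a3 and Slc12a5 were below the filter on low values.

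Of the regulators of the cascade, 9 of 10 were tested and 0 passed. Nedd4l, a ubiquitin ligase of the epithelial sodium channel, stood at 164, 158, 166, 169 and 157 per M in knockout 1 to 5, against 149, 155, 140, 153 and 150 per M in wild type 2 to 6. The groups did not overlap, but the log2 difference was 0.12 ± 0.06 (SE, limma adjusted p = 0.525). Cab39 and Cab39l, scaffolds that activate SPAK and OSR1, had log2 differences of 0.06 ± 0.06 and -0.16 ± 0.09. Klhl3, an adaptor of the ubiquitin ligase that degrades WNK kinases, was low, at 1.94 ± 0.329 per M in knockout and 1.55 ± 0.704 in wild type (SD, n = 5 each), where wild type 2 stood at 2.76.

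Of the RELT partners and the p38 and JNK kinases, 10 of 11 were tested and 0 passed. Map3k5, a kinase upstream of p38 and JNK, stood at 66.8, 68.4, 75.8, 66.6 and 72.5 per M in knockout 1 to 5, against 60.5, 54.9, 56.7, 66.3 and 63.3 per M in wild type 2 to 6. The groups did not overlap, by a margin smaller than the spread within either group, and the log2 difference was 0.21 ± 0.07 (SE, limma adjusted p = 0.369). Nedd4l and Map3k5 were the 2 of 43 list genes whose groups did not overlap toward higher values, as was the case for 0.958% of all genes. Without knockout 1 and wild type 2, 5 of 43 did not overlap toward higher values (Klhl3, Nedd4l, Slc12a7, Map3k5 and Tnfrsf9), against 3.85% of all genes, and 1 toward lower values (Cab39l), against 2.87%. Mapk14 (p38 alpha), Mapk8 (a JNK kinase) and Mdfic had log2 differences of 0.11 ± 0.07, 0.23 ± 0.13 and 0.14 ± 0.08 (SE).

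The subunits of the volume-regulated anion channel, Lrrc8a to Lrrc8e, were all tested and 0 passed. Lrrc8d stood at 72.3 ± 7.74 per M in knockout and 63.0 ± 4.95 in wild type (SD, n = 5 each), a log2 difference of 0.19 ± 0.08 (SE, limma adjusted p = 0.499). Lrrc8b, Lrrc8c and Lrrc8e had log2 differences of 0.21 ± 0.16, 0.11 ± 0.10 and -0.03 ± 0.09 (SE).

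Of 27 other TNF receptor genes 14 were tested and 0 passed. The log2 differences of the 14 ran from -0.28 to 0.74 with all libraries. In the 8 libraries they ran from -0.33 to 1.58 (smallest limma adjusted p = 0.0641). Tnfrsf14, the receptor for LIGHT, and Tnfrsf22, a decoy receptor in the mouse, had log2 differences of 0.49 ± 0.22 and 0.37 ± 0.20 (SE), both at levels under 5 per M. Tnfrsf21, a death domain receptor, stood at 7.43 ± 2.15 per M in knockout and 5.45 ± 1.28 in wild type (SD, n = 5 each). Tnfrsf1b, the type II receptor for tumour necrosis factor, stood at 17.2 ± 3.30 per M in knockout and 14.4 ± 2.16 in wild type. Tnfrsf19, a close relative of Relt, was below the filter on low values.

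**Figure D4:**
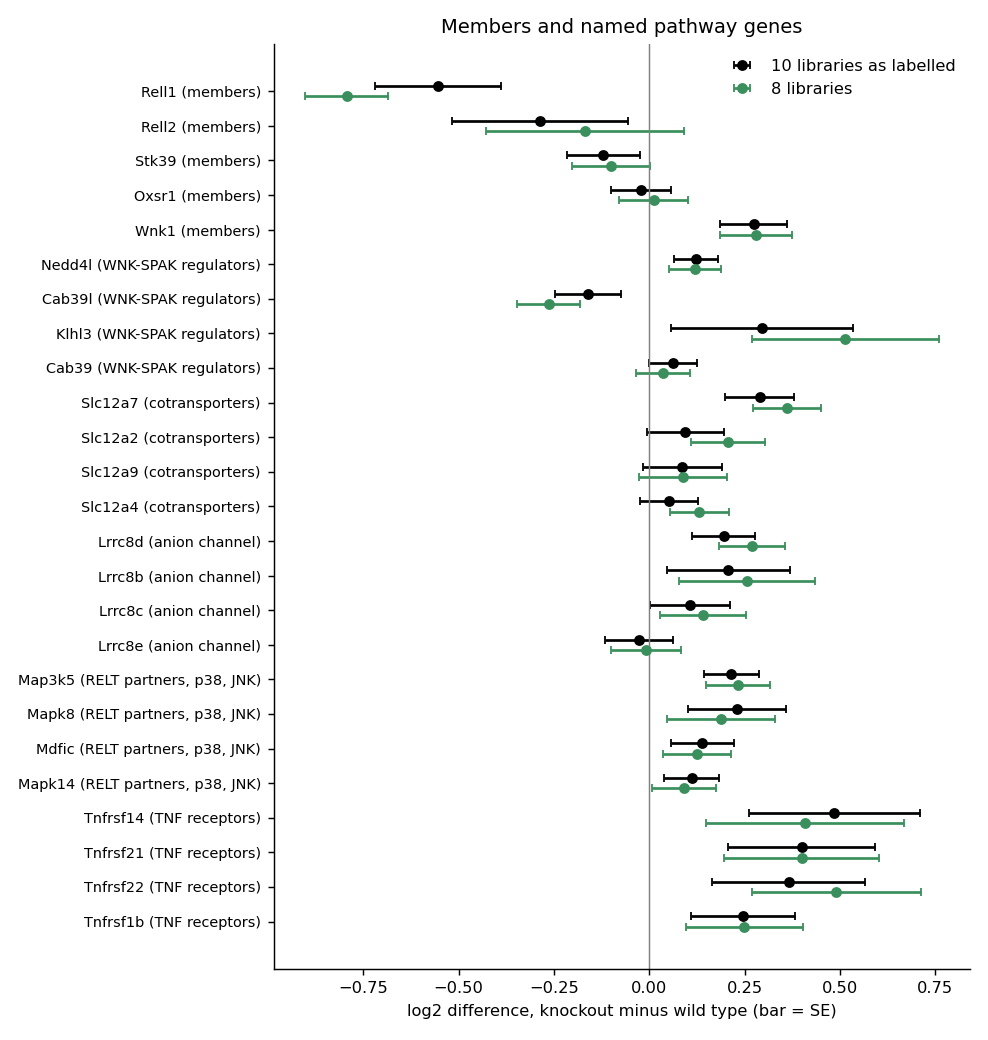
Log2 difference, knockout minus wild type, with its SE, for the 5 tested members and 20 named genes of the 5 lists, with all 10 libraries and with 8. Rell1 lies farthest below 0, at -0.55 and -0.79, while Wnk1 and Slc12a7 lie above 0, at 0.27 and 0.29 with all libraries.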

How the data were processed

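Polyadenylated RNA of sorted AT2 cells was made into NEBNext Ultra libraries and sequenced on an Illumina NextSeq instrument, per the labels' protocols. Bcl2fastq 2.17, edgeR 3.14.0 and mm10 are named in the submitters' processing notes, with no role given. Not given in the sources used here are the aligner, the annotation, the strand setting and how values were normalized. In all, the authors deposited 1 table of normalized read counts, a signal that is never negative and not whole, with column totals of 6.94 to 7.43 M. Depth is therefore only roughly known, and no count test was run. Columns were matched to samples by title, and 16026 IDs to symbols (GENCODE M21, mm10).

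All values were divided by the mean total (7.14 M). Genes at 1 per M or more in at least 5 libraries (12946) were tested with limma-trend (limma 3.58.1, R 4.3.3) on log2(value + 0.5), two-sided, with Benjamini-Hochberg adjustment over all of them. Such fold changes understate those of low genes. The test was checked on simulated data. These were independent normal values without effects of run, sex or labels, so they do not show how the test performs on these libraries. Replicates were taken as separate mice from the mouse numbers in their titles. Members and lists were chosen with earlier results of these data known, as was the choice of the 8 libraries. Genes named are the members, Rbck1, up to 4 genes of smallest p per pathway list, the 5 genes most like Rell1 and its 5 tested neighbours on each side; Fchsd1 was named for its overlap with Rell2, Tnfrsf19 as a relative of Relt, markers to check the cell type. Alternatives were pseudocounts, filters, scalings, covariates, the replicate block, single runs and left-out libraries. Python 3.11.15, pandas 2.3.3 and matplotlib 3.10.9 were used.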

Additional observations from a re-analysis of the deposited data

Results flagged for a closer look

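Within single groups of 5, 8 of the 82 sets of values checked had 1 library far from the other 4 by Dixon's criterion, which chance meets in about 1 of 20. In knockout these were Rell1 in knockout 1 (29.8 per M, the others 13.8 to 16.0), Adss in knockout 1 (63.5 per M, the others 38.3 to 41.9), B230118H07Rik in knockout 1 (10.7 per M, the others 7.78 to 8.41) and Slc12a7 in knockout 5 (51.4 per M, the others 46.7 to 48.0). In wild type they were Rbck1 in wild type 2 (29.7 per M, the others 56.1 to 57.8), Klhl3 in wild type 2 (2.76 per M, the others 0.916 to 1.38), Tbc1d19 in wild type 2 (11.0 per M, the others 11.8 or more) and Mdfic in wild type 4 (85.7 per M, the others 103 to 110). The sets are not independent: Adss and B230118H07Rik were chosen for likeness to Rell1 over these libraries, and Rbck1 set wild type 2 and knockout 1 apart, so the number of such values is not read against chance.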

How the results depend on the processing

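Rell1 stayed below 0 in all 31 alternatives, with log2 differences from -0.88 (8 libraries with sex as a covariate, which compares males only) to -0.31 (first run alone), and from -0.75 to -0.48 when single libraries were left out. Without knockout 1 it was -0.75. Wnk1 stayed above 0 in all 31 (0.20 to 0.37), Stk39 below 0 in all 31 (-0.25 to -0.04), while Oxsr1 lay above 0 in 14 and below in 17 (-0.07 to 0.09), with no call. The count of genes between knockout and wild type, 0 as labelled, was 261 with the replicate block, 1 with the run as a covariate, 52 in the 8 libraries, 27 there with sex as a covariate, 41 in the second run alone, and 0 to 4 with single libraries left out (4 without knockout 1). Leaving out 1 more of the 8, an alternative chosen after seeing the data, gave 39 (knockout 2), 32 (knockout 3), 84 (knockout 4), 39 (knockout 5), 74 (wild type 3), 26 (wild type 4), 19 (wild type 5) and 100 (wild type 6). Among the members other than Rell1, which were listed with results of this contrast in view, 1 passed with the replicate block and 0 otherwise. That member was Wnk1 at 0.37 (limma adjusted p = 0.0198), in a fit where 261 of the 12946 genes passed. In the pathway lists 1 passed with the replicate block and 1 in the 8 libraries without knockout 4, Tnfrsf9 each time, named after its values were seen. Knockout 1 and wild type 6 have no partner of the same number and do not inform the blocked fit. Whether the numbers pair the samples was not settled. Deviations from the group means correlated at 0.314, 0.0265, 0.0986 and 0.0792 for replicates 2 to 5. Not every sample correlated best with its own number, but with 5 libraries per group these correlations cannot exclude pairing. Between runs the count of 81 was 18 to 139 with single libraries left out (139 without knockout 1, 43 without knockout 4, and 18, 44, 23 and 28 without wild type 2, 3, 5 and 6), 28 in the 8 libraries and 44 with sex as a covariate, and that of the difference between runs, 2 (Camk2b and Col6a2), was 1 to 18 (18 without wild type 3). The difference of Rell1 between runs was -0.52 with sex as a covariate, -0.30 without wild type 2, -0.12 without knockout 4 or in the 8 libraries and -0.03 without knockout 1. Columns held about 7.69 M to 13.2 M reads by the rough depth, which limits Rell2 and Relt most. Otherwise the cause was not tested.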
